A study of Homo sapiens with 6 samples.

Results

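The genes described here encode the cytosolic and the mitochondrial chaperonin: 8 subunits of the cytosolic chaperonin TRiC (also called CCT), and the mitochondrial chaperonin HSP60 with its co-chaperonin HSP10. They were chosen by name as TCP1, CCT2, CCT3, CCT4, CCT5, CCT6A, CCT7, CCT8, HSPD1 and HSPE1. Each of the 10 was represented by 1 probe set annotated to that symbol alone, so 10 of the 29183 probe sets that were not controls belonged to them. Expression was measured on 6 Affymetrix Human Gene 1.0 ST arrays of HEK293T cells, an established line from human embryonic kidney that expresses a viral large T antigen. The VRTN group held 3 arrays, from cells transfected with the plasmid pNTAP-2×flag-VRTN, which carries the coding sequence of pig VRTN. The empty vector group held 3 arrays, from the same cells given the pNTAP-2×flag plasmid without that insert. Total RNA was taken 24 hours after transfection in both groups, and the labels call the 3 arrays of a group biological replicates. The labels do not say whether the replicates came from separate cultures, so p-values measure the spread between these samples. A deposited value is a log2 signal, in which a difference of 1 is a doubling. In such bulk RNA, fewer cells with a transcript and less of it per cell cannot be told apart.

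A chaperonin is a double-ringed chamber that takes in an unfolded protein and lets it fold inside, driven by ATP. In TRiC each ring is built from 8 different, related subunits. Its best known clients are actin and tubulin, which prefoldin delivers to it, and phosducin-like proteins act as its co-factors. HSPD1 encodes HSP60, which forms the chamber in the mitochondrial matrix, and HSPE1 encodes HSP10, the lid that closes it. In human cells HSPD1 and HSPE1 lie head to head and share a promoter region, and the heat shock factor HSF1 is known to act on it. HSF1 binds heat shock elements, runs of alternating GAA and TTC blocks separated by a pair of bases.

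The promoters of the mitochondrial pair are shown because these genes had the highest log2 fold changes of the 10, and that of CCT8 because its log2 fold change was the most negative. A promoter of DNAJB1, a heat shock gene that passed the test in the same cells, is added. It is 1 of 3 DNAJB1 windows and was chosen for its matches. Each window runs from 250 bases before to 50 after a RefSeq gene start in GRCh38.p14, 5′ to 3′ on the strand of the gene. Capitals mark every GAANNTTC or TTCNNGAA, the 2-block forms of the heat shock element.
HSPD1, upstream start, chr2:197500225-197500524, minus strand: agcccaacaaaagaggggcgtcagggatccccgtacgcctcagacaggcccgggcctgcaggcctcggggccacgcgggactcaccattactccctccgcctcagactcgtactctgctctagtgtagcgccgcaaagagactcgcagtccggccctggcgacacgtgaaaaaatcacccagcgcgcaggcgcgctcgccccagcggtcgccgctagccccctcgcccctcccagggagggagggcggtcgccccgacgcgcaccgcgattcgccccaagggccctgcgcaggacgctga
HSPD1, downstream start, chr2:197499791-197500090, minus strand: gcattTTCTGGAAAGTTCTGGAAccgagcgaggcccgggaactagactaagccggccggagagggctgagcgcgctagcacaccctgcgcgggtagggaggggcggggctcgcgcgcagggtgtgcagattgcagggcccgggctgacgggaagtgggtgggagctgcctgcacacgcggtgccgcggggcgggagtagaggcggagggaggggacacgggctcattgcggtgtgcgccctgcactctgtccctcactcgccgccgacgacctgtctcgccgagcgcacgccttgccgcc
HSPE1, chr2:197500129-197500428, plus strand: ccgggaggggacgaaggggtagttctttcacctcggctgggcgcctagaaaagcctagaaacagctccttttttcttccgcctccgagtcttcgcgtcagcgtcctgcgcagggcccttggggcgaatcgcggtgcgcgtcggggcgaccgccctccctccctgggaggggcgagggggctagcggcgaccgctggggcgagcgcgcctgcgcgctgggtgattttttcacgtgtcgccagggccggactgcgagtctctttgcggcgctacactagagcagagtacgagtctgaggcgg
CCT8, chr21:29073599-29073898, minus strand: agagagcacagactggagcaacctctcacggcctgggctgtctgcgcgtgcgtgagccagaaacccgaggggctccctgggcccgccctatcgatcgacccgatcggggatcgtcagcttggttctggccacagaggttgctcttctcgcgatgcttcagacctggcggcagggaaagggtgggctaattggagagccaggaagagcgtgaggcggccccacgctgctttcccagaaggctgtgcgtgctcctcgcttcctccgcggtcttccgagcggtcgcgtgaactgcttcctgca
DNAJB1, chr19:14518348-14518647, minus strand: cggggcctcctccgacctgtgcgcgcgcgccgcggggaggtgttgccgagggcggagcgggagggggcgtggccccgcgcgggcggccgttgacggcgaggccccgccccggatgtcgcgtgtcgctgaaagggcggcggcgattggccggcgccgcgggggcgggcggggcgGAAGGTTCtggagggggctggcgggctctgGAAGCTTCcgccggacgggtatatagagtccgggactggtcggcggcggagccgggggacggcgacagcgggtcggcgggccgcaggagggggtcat

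The upstream HSPD1 window and the HSPE1 window share 204 bases, read on opposite strands, and neither holds a 2-block match. The downstream HSPD1 start lies 434 bases from the upstream one, and its window holds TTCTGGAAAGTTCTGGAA near the 5′ end. This run of 18 bases holds 1 GAANNTTC and 2 TTCNNGAA matches, which overlap. They join into 1 match each of the 3-block forms GAANNTTCNNGAA and TTCNNGAANNTTC, which also overlap. The run also lies upstream of the HSPE1 start, but outside the HSPE1 window. That window begins at position 197500129, while the downstream HSPD1 window ends at 197500090. The lack of a match for HSPE1 thus depends on where its window was cut. Both strands were searched, since each 2-block form reads the same on either strand and the 3-block forms are each other's reverse. The RefSeq table held 12 windows for 9 of the genes, all but CCT6A. A 2-block form stood in 4 of the 12 windows, 1 each for TCP1, CCT2, CCT4 and HSPD1, against 13.5% of all 35116 windows. The 12 are not separate sequences. Both CCT4 windows overlap, beginning at positions 61888607 and 61888622, and only the first holds a match, at position 39 from its start. The CCT4 match thus also depends on where the window was cut. The 3-block forms stood in the HSPD1 window alone among the 12, against 0.490% of all windows. The DNAJB1 window held 2 separate GAANNTTC matches, at positions -77 and -47 from the start, and no 3-block form. The window of HSPH1, the other heat shock gene that passed, held neither form. A match is a description of the letters in these windows, and none was tested for binding here.

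None of the 10 chaperonin genes passed the test. In limma, with Benjamini-Hochberg adjustment over all 29183 probe sets, 0 of 10 had an adjusted p under 0.05 (adjusted p = 0.892 to 1.00), where 0.0137% of all probe sets passed. At an unadjusted p under 0.05 the count was also 0 of 10, against 5.58% of all probe sets (2.65% higher and 2.92% lower). With the replicate number as a block, 2 of 10 had an unadjusted p under 0.05, HSPD1 on the higher and CCT8 on the lower side, against 11.5% of all probe sets (5.31% higher and 6.19% lower). Their adjusted p in that limma fit was 0.405 for HSPD1 and 0.367 for CCT8, so 0 of 10 passed there, where 0.0274% of all probe sets did. The log2 fold change was above 0 for 6 of 10 genes, against 48.0% of all probe sets. Its median over the 10 was 0.0042, against -0.0049 over all probe sets. All 10 were among the 5837 brightest tested probe sets, of which 36.6% were above 0, with a median of -0.029. The groups did not overlap for 2 of 10 genes, 1 higher and 1 lower, where 11.3% of all probe sets had groups that did not overlap (5.39% higher and 5.92% lower).

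**Figure D1:**
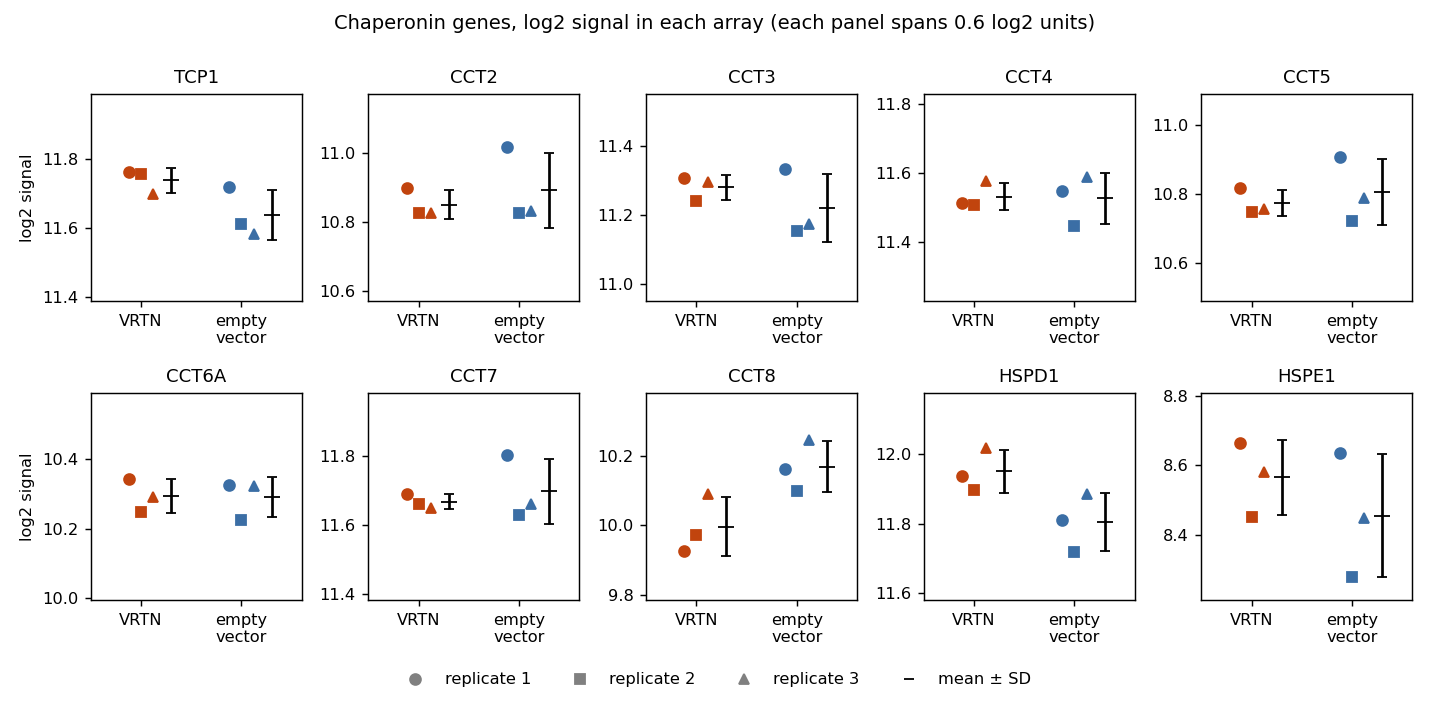
Log2 signal of the 10 chaperonin genes in each array, VRTN left and empty vector right in each panel; symbols give the replicate number, the bars the mean and SD of 3 arrays, and each panel spans 0.6 log2 units. The groups are separate for HSPD1, higher with VRTN, and for CCT8, lower with VRTN, and overlap in the other 8 panels.

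HSPD1, the chamber of the mitochondrial chaperonin, had log2 signals of 11.94, 11.90 and 12.02 in the VRTN arrays, against 11.81, 11.72 and 11.89 in the empty vector arrays. All 3 VRTN arrays lay above all 3 empty vector arrays, with the lowest VRTN array only just above the highest empty vector array. The means were 11.95 ± 0.062 with VRTN and 11.80 ± 0.085 with the empty vector (SD, n = 3 each). VRTN exceeded the empty vector by 0.15 (log2 fold change, SE 0.074; limma adjusted p = 0.908), a fold of 1.11, with a 95% interval of -0.025 to 0.32. Within the same-numbered pairs the VRTN array was higher by 0.13, 0.18 and 0.13 for replicates 1, 2 and 3. Their direction follows from the separate groups. With the replicate number as a block the interval was 0.012 to 0.28. A log2 fold change at least as large, in either direction, was found for 16.7% of all probe sets.

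HSPE1, the lid of that chamber, had log2 signals of 8.66, 8.45 and 8.58 in the VRTN arrays, against 8.64, 8.28 and 8.45 in the empty vector arrays. The groups overlapped, because empty vector replicate 1 lay above VRTN replicates 2 and 3. The difference was a log2 fold change of 0.11 (SE 0.11; limma adjusted p = 0.973), with a 95% interval of -0.13 to 0.36. The paired differences were 0.028, 0.17 and 0.13 for replicates 1, 2 and 3, so HSPE1 was higher in 3 of 3 pairs. The share of all probe sets higher in 3 of 3 pairs was not counted. Its spread over the 6 arrays, 0.39 from lowest to highest, was the widest of the 10 genes. The HSPE1 probe set is also paired in the deposited table with the readthrough transcript HSPE1-MOB4, which the array cannot separate from HSPE1.

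CCT8, the theta subunit of TRiC, had log2 signals of 9.93, 9.97 and 10.09 in the VRTN arrays, against 10.16, 10.10 and 10.25 in the empty vector arrays. All 3 VRTN arrays lay below all 3 empty vector arrays, though VRTN replicate 3 and empty vector replicate 2 nearly met. The means were 9.996 ± 0.085 with VRTN and 10.17 ± 0.074 with the empty vector (SD, n = 3 each). This gave a log2 fold change of -0.17 (SE 0.076; limma adjusted p = 0.892), a fold of 0.886, with a 95% interval of -0.35 to 0.0030. The paired differences were -0.24, -0.13 and -0.16, all below 0 as separate groups require. The interval with the replicate block was -0.32 to -0.033. Of all probe sets, 11.5% differed by at least as much in either direction. CCT8 was the only TRiC subunit whose groups did not overlap.

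TCP1, the alpha subunit and the founding member of the family, had log2 signals of 11.76, 11.76 and 11.70 in the VRTN arrays, against 11.72, 11.61 and 11.58 in the empty vector arrays. The groups overlapped by the value of empty vector replicate 1. Its log2 fold change of 0.10 (SE 0.069; limma adjusted p = 0.947) had a 95% interval of -0.059 to 0.26, with VRTN higher in 3 of 3 pairs. CCT3, the gamma subunit, had 11.31, 11.24 and 11.29 in the VRTN arrays, against 11.33, 11.15 and 11.18 in the empty vector arrays. Its log2 fold change was 0.060 (SE 0.074; limma adjusted p = 0.982), and empty vector replicate 1 was the highest of its 6 arrays.

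The other 5 TRiC subunits differed by at most 0.042 on the log2 scale in either direction. CCT2, the beta subunit, had 10.90, 10.83 and 10.83 in the VRTN arrays, against 11.02, 10.83 and 10.83 in the empty vector arrays. CCT5, the epsilon subunit, had 10.82, 10.75 and 10.76 in the VRTN arrays, against 10.91, 10.72 and 10.79 in the empty vector arrays. CCT7, the eta subunit, had 11.69, 11.66 and 11.65 in the VRTN arrays, against 11.80, 11.63 and 11.66 in the empty vector arrays. In these 3 genes empty vector replicate 1 stood above the other 5 arrays, and the groups overlapped. CCT4, the delta subunit, had 11.51, 11.51 and 11.58 in the VRTN arrays, against 11.55, 11.44 and 11.59 in the empty vector arrays. CCT6A, the zeta subunit, had 10.34, 10.25 and 10.29 in the VRTN arrays, against 10.33, 10.23 and 10.32 in the empty vector arrays. The groups of both genes overlapped almost fully. The log2 fold changes were -0.042 for CCT2, -0.031 for CCT5, -0.031 for CCT7, 0.0053 for CCT4 and 0.0031 for CCT6A, with limma adjusted p = 0.992 or above for each. Over CCT2, CCT3, CCT4, CCT5, CCT6A and CCT7 the 95% intervals ran from -0.22 to 0.23, or from 0.858-fold to 1.17-fold. A p that misses the threshold does not show equal levels, but changes beyond those bounds lay outside the intervals of these 6 subunits.

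**Figure D2:**
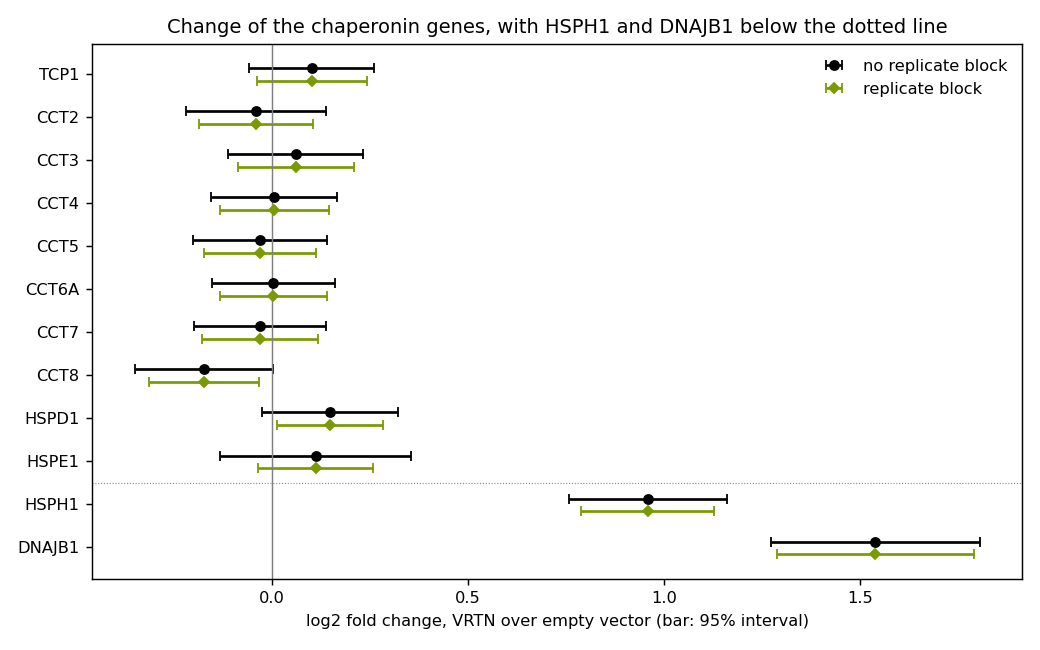
Log2 fold change of VRTN over empty vector with its 95% interval, from limma without (black circles) and with (green diamonds) the replicate number as a block. The 10 chaperonin genes lie between -0.17 and 0.15, far below HSPH1 at 0.96 and DNAJB1 at 1.54.

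The size of these differences can be set beside 2 heat shock genes that passed the test in the same fit. DNAJB1, a co-chaperone of HSP70, had log2 signals of 9.94, 9.83 and 10.21 in the VRTN arrays, against 8.61, 8.37 and 8.38 in the empty vector arrays (log2 fold change 1.54; limma adjusted p = 0.0182). HSPH1, a large HSP70-like chaperone, had 11.78, 11.74 and 11.75 in the VRTN arrays, against 10.97, 10.73 and 10.69 in the empty vector arrays (log2 fold change 0.96; limma adjusted p = 0.0374). Both stood apart from the controls by several times the spread between replicates. The change of DNAJB1 exceeded that of each chaperonin gene by 1.39 (HSPD1) to 1.71 (CCT8) on the log2 scale, and that of HSPH1 by 0.81 (HSPD1) to 1.13 (CCT8). In all 20 comparisons the within-array differences of the groups did not overlap. The exact permutation p was 0.1 (two-sided) for each, which is the smallest that 3 arrays against 3 can give. DNAJB1 and HSPH1 were taken because they had passed the test, so these differences describe their size. The separate groups and the permutation p followed from that choice and are no further evidence. The probe set of human VRTN, the check of the labels, was at 6.18 ± 0.10 with VRTN and 5.10 ± 0.11 with the empty vector (SD, n = 3 each). It exceeded the negative controls' median in 3 of 6 arrays, those of the VRTN group. How well its probes bind the pig transcript was not measured.

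The log2 signals of the 10 chaperonin probe sets were set beside those of the control probe sets. Their log2 signals ranged from 8.28 to 12.02 and exceeded the negative controls' median in 6 of 6 arrays for every gene. Against the 95th percentile of the negative controls, which lay between 10.53 and 11.12, TCP1, CCT3, CCT4, CCT7 and HSPD1 were above in 6 of 6 arrays, CCT2 and CCT5 in 2 of 6, and CCT6A, CCT8 and HSPE1 in 0 of 6. The negative controls' 95th percentile lay far above the median of the tested probe sets (6.43 to 6.47). A signal under it does not show that a gene is silent. By mean signal HSPD1 stood at the 99.3rd percentile of the tested probe sets, CCT6A at the 96.0th, CCT8 at the 95.1st and HSPE1, the dimmest, at the 80.7th. Signals of different probe sets do not compare transcript amounts, since probes differ in affinity. Over the 6 arrays the median range of the 10 genes was 0.18, against 0.27 for the 5837 brightest tested probe sets. The median SE was 0.088 over all probe sets, and the SE lay between 0.068 and 0.11 for the chaperonin genes. Several of these genes have processed pseudogenes, and how far the probes also bind transcripts of those was not measured.

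The genes also varied with the replicate number. Averaged over both groups, replicate number 2 was the lowest of the numbers for 9 of 10 genes and number 1 the highest for 7 of 10. For HSPE1 the means over the same-numbered arrays were 8.65, 8.36 and 8.52 for numbers 1, 2 and 3, a wider spread than its group difference of 0.11. CCT2 had 10.96, 10.83 and 10.83 for the same numbers. CCT8, CCT4 and HSPD1 were the 3 genes with their highest mean in number 3. In VRTN replicate 1 the median deviation of the 10 genes from their own means was 0.039, in VRTN replicate 2 it was -0.032 and in VRTN replicate 3 it was 0.0084. In empty vector replicates 1, 2 and 3 it was 0.080, -0.073 and -0.011. Over the 5837 brightest tested probe sets the median deviation was -0.0089, -0.012 and -0.013 in VRTN replicates 1, 2 and 3. In the empty vector replicates it was 0.016, 0.014 and 0.017. The shares of all probe sets lowest in number 2 or highest in number 1 were not counted. The groups hold the same 3 numbers, so the numbers are balanced between VRTN and empty vector. What a number stands for beyond a biological replicate is not given in the labels.

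**Figure D3:**
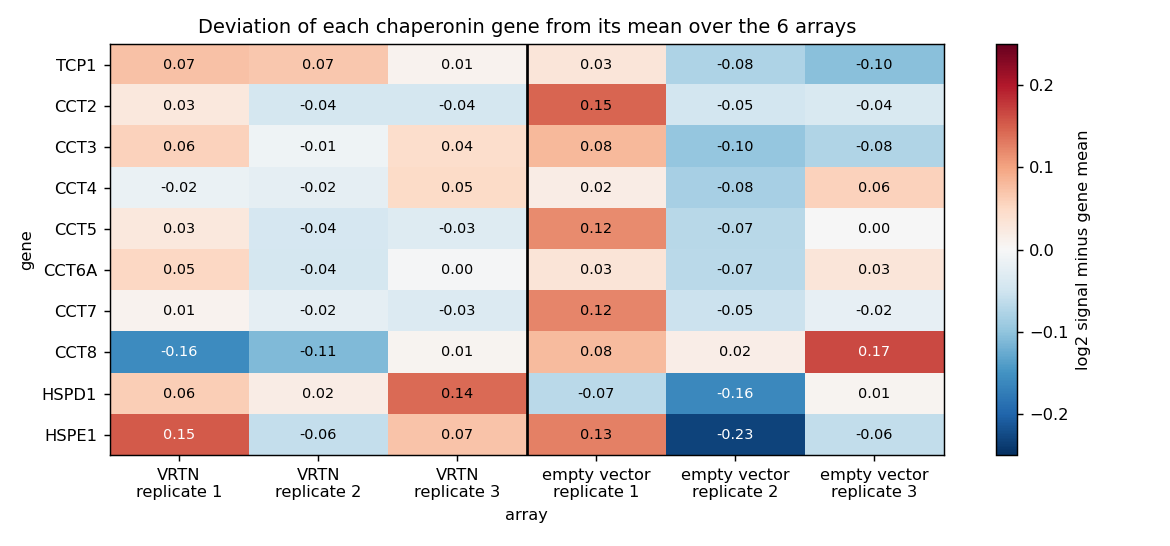
Deviation of each gene's log2 signal from its own mean over the 6 arrays (red above, blue below), VRTN arrays left of the black line and empty vector arrays right of it. Every VRTN value of HSPD1 lies above, and every VRTN value of CCT8 below, all of its empty vector values, while empty vector replicate 2 is below the mean for 9 of the 10 genes.

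Profiles over the 6 arrays were compared by the mean absolute difference in log2 signal after each gene was centred on its own mean. Among the 10 genes the closest profiles were those of CCT5 and CCT7 (0.013), CCT2 and CCT7 (0.017) and CCT2 and CCT5 (0.017). The farthest apart were CCT8 and HSPD1 (0.16) and CCT8 and HSPE1 (0.16). CCT8 thus differed from the mitochondrial pair more than any other subunit did. Of 18416 other genes ranked by likeness to TCP1, CCT3 was at rank 414, CCT6A at 1171, CCT7 at 3516 and CCT5 at 3564. CCT4 followed at 3696, CCT2 at 4459, HSPD1 at 6548, HSPE1 at 8850 and CCT8 at 14716. Ranked by likeness to HSPD1, CCT4 came at 1373, CCT3 at 1398, CCT6A at 1476, TCP1 at 2524 and CCT5 at 4185. HSPE1 came only after these, at 4654, before CCT7 at 5221, CCT2 at 7302 and CCT8 at 14794. The genes most like HSPD1 were SPAG5 (0.016), TMEM63B (0.019) and SLC44A2 (0.020), and those most like TCP1 were MLLT6 (0.013), NPY2R (0.013) and RNF167 (0.014). NPY2R lay above the negative controls' median in 0 of 6 arrays. Such nearness over 6 arrays also reflects a small spread, and no test was made of it.

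The genes that work with the chaperonins were taken as 11 lists of 96 genes, of which 90 were measured. None passed in limma over all probe sets (0 of 90), where 0.0137% of all probe sets passed. Without adjustment, 3 genes lay on the higher and 3 on the lower side at p under 0.05, or 6.67% against 5.58% of all probe sets. With the replicate block 4 were higher and 6 lower, or 11.1% against 11.5%, and 0 of 90 passed after adjustment in that limma fit. Among the genes named below, the groups did not overlap, with VRTN lower, for CCT6B, PFDN2, POLR2E, MLST8, DNAJA3, OMA1, TRAP1 and SSBP1. With VRTN higher they did not overlap for TUBA4A, TUBB2B and DDIT3. Of all probe sets 5.92% were lower and 5.39% higher in this way. The named genes were picked by smallest p, which favours such groups.

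Prefoldin, the hexamer that hands actin and tubulin to TRiC, had log2 fold changes of -0.13 to 0.060 over its 6 subunits, with a median of -0.021 and none at an unadjusted p under 0.05. PFDN2 had the smallest p, at 9.10 with VRTN and 9.23 with the empty vector (-0.13, SE 0.068; limma adjusted p = 0.912), and its groups did not overlap. PFDN5 was at 0.060. The prefoldin-like list had a median of -0.072 over 4 measured genes, with POLR2E, a subunit shared by the RNA polymerases, at -0.13 and UXT at 0.088. Among the 5 phosducin-like genes the median was 0.0080. PDC, the phosducin of the retina, alone had an unadjusted p under 0.05 (0.25, SE 0.10; limma adjusted p = 0.867), and its signal stayed under the median of the negative controls in 6 of 6 arrays. PDCL3 was at -0.071. Genes of the chaperonin fold outside TRiC had a median of -0.12 over 5, with 1 lower at an unadjusted p under 0.05. It was CCT6B, the testis counterpart of CCT6A, at 3.94 with VRTN and 4.14 with the empty vector (-0.19, SE 0.076; limma adjusted p = 0.853), with 0 of 6 arrays above the median of the negative controls. BBS12, which helps assemble the BBSome of cilia, was at -0.17. With the block, CCT6B and BBS12 were the 2 genes of this list at such a p.

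Among the clients, 19 tubulins had a median of 0.0051, with 11 above 0 and 8 below. TUBA4A was at 7.11 with VRTN and 6.85 with the empty vector (0.25, SE 0.10; limma adjusted p = 0.867), the 1 tubulin at an unadjusted p under 0.05. TUBB2B was at 0.15 and TUBE1 at -0.17. All VRTN arrays lay above all empty vector arrays for 2 of 19 tubulins, TUBA4A and TUBB2B, where 5.39% of all probe sets were so. With the replicate block, 2 tubulins on the higher side (TUBA4A and TUBB2B) and 1 on the lower (TUBE1) had an unadjusted p under 0.05, and none passed after adjustment. The 6 actins had a median of 0.016 and none at an unadjusted p under 0.05, with ACTG1, a cytoplasmic actin, at 0.043 and ACTA2, a smooth muscle actin, at -0.16. The 6 measured tubulin folding cofactors had a median of -0.052 and none at an unadjusted p under 0.05, with TBCE at -0.17 and TBCC at 0.074. With the block, TBCE was the 1 cofactor at such a p, on the lower side. The 12 other TRiC clients had a median of -2.5e-05 and none at an unadjusted p under 0.05. Of these, MLST8, a subunit of the mTOR complexes, was at -0.16 (SE 0.069; limma adjusted p = 0.892) and CDC20, an activator of the anaphase-promoting complex, at 0.092. Tubulins and actins are families of near-identical genes, so their probe sets may share signal.

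The mitochondrial HSP70 system had a median of -0.084 over 7 measured genes, 6 of them below 0, and none at an unadjusted p under 0.05. Without VRTN replicate 3 that median was 0.013. DNAJA3, a mitochondrial J-domain protein, was at -0.090 and HSCB, the J-domain protein of iron-sulphur cluster assembly, at 0.049. Of 14 other mitochondrial folding and proteolysis genes 11 were below 0, with a median of -0.043, and 2 were lower at an unadjusted p under 0.05. They were the protease OMA1, at 8.19 with VRTN and 8.41 with the empty vector (-0.22, SE 0.078; limma adjusted p = 0.843), and TRAP1, the mitochondrial HSP90. TRAP1 was at 10.36 with VRTN and 10.55 with the empty vector (-0.19, SE 0.072; limma adjusted p = 0.853). A second, dimmer TRAP1 probe set was at 0.011. The groups did not overlap, with VRTN lower, for 6 of the 14, where 5.92% of all probe sets were so. Of these 6, only OMA1 and TRAP1 had an unadjusted p under 0.05. The same share over the brightest probe sets was not counted. The protease LONP1 was at 0.013. Among 6 regulators of the mitochondrial unfolded protein response the median was -0.068, and DDIT3, the stress-induced factor CHOP, was the 1 gene at an unadjusted p under 0.05. DDIT3 was at 7.34 with VRTN and 6.999 with the empty vector (0.34, SE 0.097; limma adjusted p = 0.741), and SSBP1 was at -0.15. The median over the 5837 brightest tested probe sets was also below 0, at -0.029, with 36.6% of them above 0.

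**Figure D4:**
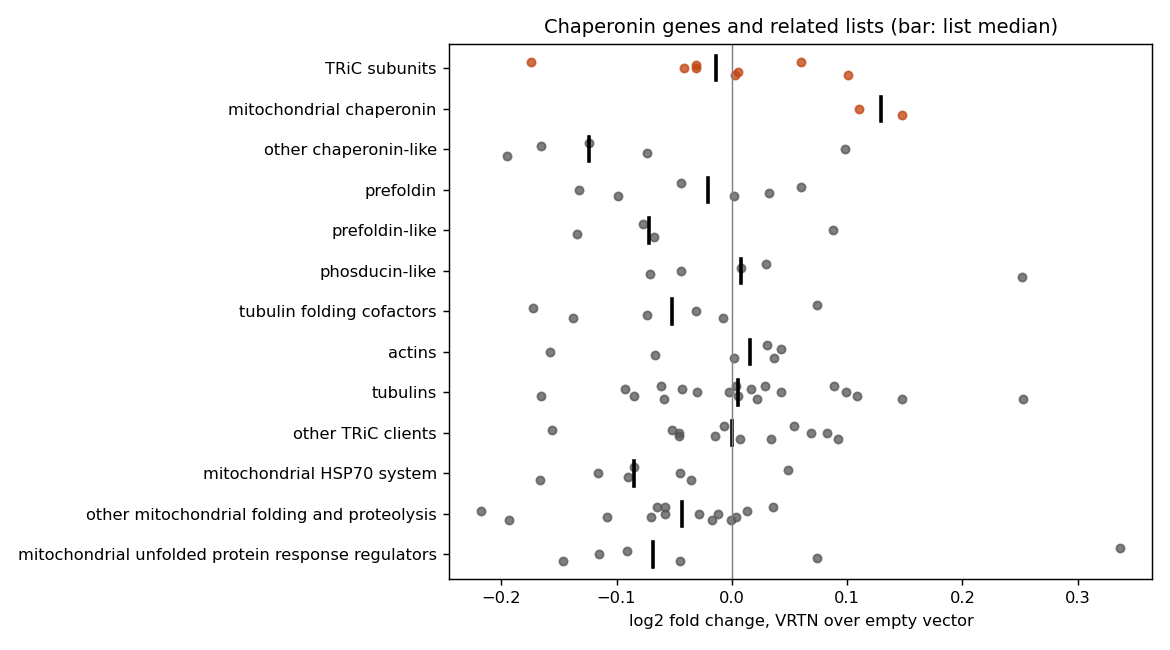
Log2 fold change of VRTN over empty vector for each measured gene (points) with the list median (black bar), the chaperonin genes in orange in the upper rows. HSPD1 and HSPE1 lie above 0 and CCT8 lies lowest of the TRiC subunits, while 6 of 7 genes of the mitochondrial HSP70 system lie below 0.

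The labelled cell line was checked against marker genes. Of 9 genes that HEK293T lines usually express, 6 lay above the negative control median in all 6 arrays, among them VIM, PAX2 and KRT18. The others exceeded it in fewer arrays, NEFM and NEFH in 1 of 6 each and INA in 3 of 6. Of the markers of other cell types, PTPRC and CD3E (blood), PECAM1 and VWF (endothelium), ALB (hepatocytes) and DCN (fibroblasts) lay under it throughout. CD14, CDH5 and TTR exceeded it in 2, 1 and 1 of 6 arrays, and COL1A1, COL3A1 and APOA1 lay above it in all 6. KRT8 was the 1 line marker with an unadjusted limma p under 0.05. It was at 8.94 with VRTN and 7.88 with the empty vector (log2 fold change 1.06; limma adjusted p = 0.231). None of the 12 measured markers of other cell types had an unadjusted limma p under 0.05. The mean of 9 bacterial spike-in controls was higher by 0.35 with VRTN, at 10.60 ± 0.10 with VRTN and 10.24 ± 0.19 with the empty vector (SD, n = 3 each), and their part in the values above was not tested. For the 4 polyA spike-in controls the mean differed by -0.045 (VRTN minus empty vector). The median log2 signal of the tested probe sets lay between 6.43 and 6.47 in the 6 arrays. Precision is limited by having 3 arrays per group.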

How the data were processed

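The deposited table gives each probe set a log2 signal on every array, which the authors made with the default gene-level RMA, per the file headers. The submitters' processing notes list Affymetrix Expression Console 1.0, and the genome build is not given in the sources used here. RMA equalises the arrays' distributions, so a change common to most genes is hidden. A second deposited table held the same log2 values (0 differed). Of 33297 probe sets, the 4114 controls were left out and 29183 tested. Genes were named from the platform annotation and symbols updated through RefSeq, and a gene was represented by its probe set of highest mean. The comparison used limma 3.58.1 under R 4.3.3, two-sided, without a block, after a check on simulated data. Tables were made with Python 3.11.15 and pandas 2.3.3, the permutation tests with scipy 1.17.1 and the plots with matplotlib 3.10.9. Deviations from the group means were correlated between arrays of the same number (0.54, 0.16 and 0.50 over probe sets), so the numbers were taken as pairs and fitted as a block in an alternative. The genes named are all 10 chaperonin genes, up to 2 per related list and direction by smallest p, 3 genes most like HSPD1 and TCP1, and VRTN, DNAJB1 and HSPH1. The members and lists were chosen with earlier results of these data known. Promoter sequences are RefSeq's (GRCh38.p14). The alternatives were the second table, median centring, another quantile normalization, a robust, trended prior, removal of the dimmest 40 percent, array weights, no moderation, the block, averaged probe sets, and leaving out each array or each replicate number.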

Additional observations from a re-analysis of the deposited data

Results flagged for a closer look

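The bacterial spike-in probe sets, controls outside the comparison of genes, gave a higher mean with VRTN than with the empty vector, by 0.35 in log2 signal. The array means of the groups did not overlap (p = 0.1 in a two-sided exact permutation test, the lower limit for 3 arrays against 3). The mean of the 4 polyA spike-in probe sets differed by -0.045, VRTN minus empty vector (p = 0.7 in a two-sided exact permutation test).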

How the results depend on the processing

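No chaperonin gene passed an adjusted p of 0.05 in limma under any of the 18 other settings (smallest adjusted p = 0.355, CCT8 with array weights). TCP1, CCT3, CCT8, HSPD1 and HSPE1 kept their sign under all of them, with log2 fold changes of 0.073 to 0.14, 0.027 to 0.12, -0.22 to -0.14, 0.10 to 0.19 and 0.023 to 0.20. The other 5 genes lay near 0 and turned sign in 15 values. CCT5 was at 0.0045 and CCT7 at 0.00051 after quantile normalization of the tested probe sets, and CCT6A at -0.0022 with median centring and -0.00093 with array weights. With single arrays or replicate numbers left out, CCT2 ranged from -0.075 to 0.021, CCT4 from -0.035 to 0.036, CCT5 from -0.074 to 0.020, CCT6A from -0.030 to 0.026 and CCT7 from -0.066 to 0.022. CCT2, CCT5 and CCT7 were above 0 without empty vector replicate 1 (0.021, 0.020 and 0.022). CCT7 was at 0.010 and CCT6A at -0.0049 without replicate 1 in both groups. CCT4 and CCT6A were at -0.023 and -0.0066 without replicate 2 in both groups, and at -0.035 and -0.030 without empty vector replicate 2. CCT4 was at -0.017 without VRTN replicate 3 and CCT6A at -0.022 without VRTN replicate 1. The cause was not tested.

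At an unadjusted p under 0.05, 1 gene was higher after quantile normalization, with a trended and robust prior and with the replicate block, against 0 in the reported fit. One gene was lower (1 against 0) without the dimmest 40 percent, with a trended and robust prior, with array weights and with the replicate block, and 0 to 1 with arrays left out (1 without VRTN replicate 3). The gene was HSPD1 on the higher and CCT8 on the lower side. Of all probe sets, 5.31% were higher and 6.19% lower at such a p with the replicate block. In the reported fit these shares were 2.65% and 2.92%. The shares under the other settings are not given, so these counts are not read as a result about HSPD1 or CCT8. Groups that did not overlap on the higher side fell to 0 with median centring, where HSPD1 overlapped, and ranged from 1 to 4 with arrays or numbers left out (4 without empty vector replicate 1). On the lower side they fell to 0 after quantile normalization, where CCT8 overlapped. Fewer arrays make separate groups more frequent by construction. Of all probe sets 4 passed in limma in the reported fit, 14 with array weights, 8 with the replicate block, 0 without moderation, and 0 to 4 with arrays or numbers left out. At an unadjusted p under 0.05, 1627 did in the reported fit and 3357 with the replicate block. The counts of related genes moved by over 1.5 times in 55 of 396 cases. Of the 198 list medians under other settings, 24 moved beyond the spread of the pairs and 25 turned sign, in 6 of 11 lists. The ranges of those 6 were -0.057 to 0.0070 for prefoldin, -0.044 to 0.045 for the phosducin-like genes, -0.039 to 0.049 for actins, -0.025 to 0.065 for tubulins, -0.021 to 0.030 for the other TRiC clients and -0.12 to 0.013 for the mitochondrial HSP70 system. The other 5 stayed below 0. No chaperonin probe set carried several symbols, so counting such probe sets gave no value. With 3 arrays per group, the 95% intervals of the 10 genes reached from -0.35 to 0.36.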
